A study of Homo sapiens with 4 samples.

Results

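The signal recognition particle (SRP) was described in T24 cells, a long-established line of human bladder carcinoma, through the genes of its RNA and its proteins. The members are 10 of the 58302 genes listed in each deposited table: 4 genes of 7SL, the RNA of the particle (RN7SL1, RN7SL2, RN7SL3 and RN7SL4P), and 6 genes of its protein subunits (SRP9, SRP14, SRP19, SRP54, SRP68 and SRP72). They were chosen by name, with the lower values of RN7SL2 and RN7SL4P in the knockouts already known. Differences between the groups are therefore given for these genes as a description, and no test outcome supports them.

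The study sequenced polyA RNA of 4 T24 libraries. In 2 of them the genotype label is control, and in the other 2 it is IGF2BP3 knockout. Per the series text, the knockout was made with CRISPR/Cas9 as a stable line. IGF2BP3 encodes an RNA-binding protein that recognises transcripts carrying N6-methyladenosine. The labels name no drug and no time point. Whether replicates were separate cultures, separate clones or repeats of 1 clone is not stated, so the p-values measure only the spread between these samples, which may be technical.

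Gene-assigned reads numbered 2162179 in control 1, 1870884 in control 2, 811823 in knockout 1 and 1240207 in knockout 2, as worked out from the steps between FPKM values (reads scaled to transcript length and to library size). At this depth 49.4% of the 11463 genes tested were listed at 0 in at least 1 library. IGF2BP3 stood at FPKM 2.94 and 21.5 in controls 1 and 2 and at 0 and 0.190 in knockouts 1 and 2, the order the labels give. Of 16 urothelial and epithelial markers 6 were above 0. The list summed to 440 and 582 in controls 1 and 2 and to 1545 and 1163 in knockouts 1 and 2, most of it from the keratin genes KRT8 and KRT18, and its part in the results below was not tested. At 0 throughout were EPCAM, CDH1, TP63, KRT5, KRT13, KRT19 and the uroplakin genes UPK1A, UPK1B, UPK2 and UPK3A. Leukocyte markers were all at 0 (0 of 5 above 0), and endothelial and fibroblast markers summed to at most 2.72 and 14.9.

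SRP carries ribosomes that are making secretory or membrane proteins to the endoplasmic reticulum. Its 7SL RNA is transcribed by RNA polymerase III and folds into an Alu domain, formed by its ends, and an S domain, formed by its middle. On the S domain SRP54 grips the signal peptide, and on the Alu domain SRP9 and SRP14 slow the ribosome until the particle has reached its receptor. The finished 7SL RNA has no polyA tail like that of messenger RNA, and the genome holds many truncated or altered copies of its gene.

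How far reads can tell the named 7SL genes apart bears on each of their values. The 4 transcripts, as GENCODE 29 (hg38) gives them, were therefore compared with each other.

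RN7SL1 (ENSG00000276168, chr14:49586580-49586878, plus strand, 299 nt) and RN7SL2 (ENSG00000274012, chr14:49862550-49862849, minus strand, 300 nt) were 98.3% identical. They differ by 4 substitutions and 1 base that RN7SL1 lacks. RN7SL3 (ENSG00000278771, chr14:49853616-49853914, minus strand, 299 nt) was 96.0% identical to RN7SL2, with 11 substitutions. RN7SL4P, the one member on another chromosome (ENSG00000263740, chr3:15738515-15738809, plus strand, 295 nt), was 86.6% identical to RN7SL2. It has 26 substitutions, 5 bases inserted and 10 missing against RN7SL2. Of the substitutions, 23 lie in its 3′ part, and its longest stretch in common with RN7SL2 is 192 nt. It lies inside ANKRD28, on the opposite strand and outside the exons of that gene.

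Stretches of a 7SL transcript that occur in no other RN7SL entry were scarce for the abundant gene. Of the 201 windows of 100 nt in RN7SL2, 36 (17.9%) were found in no other RN7SL entry. RN7SL1 had 51 of 200 such windows (25.5%), RN7SL4P 103 of 196 (52.6%) and RN7SL3 176 of 200 (88.0%). RN7SL2 shared 106 of its windows with RN7SL1 and 93 with RN7SL4P. Reads of these genes may thus be split between copies, and how the authors treated reads that fit several places is not given in the sources used here. The genome itself was not searched, only annotated transcripts.

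**Figure D1:**
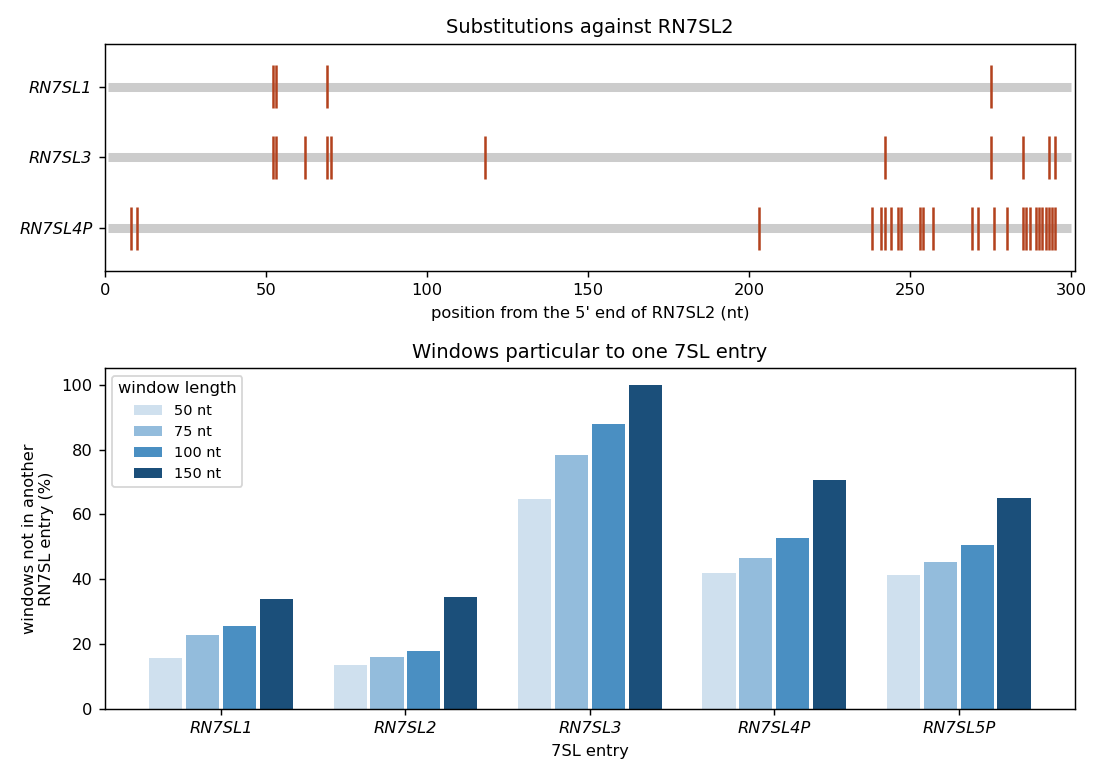
Top: positions of the substitutions of RN7SL1, RN7SL3 and RN7SL4P against RN7SL2, in nt from the 5′ end of RN7SL2. Bottom: percent of windows of 50, 75, 100 and 150 nt in each 7SL entry that occur in no other RN7SL entry; RN7SL2 has the lowest share at 50, 75 and 100 nt (13.5, 15.9 and 17.9%), and RN7SL3 the highest at every length.

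By FPKM, RN7SL2 was the most abundant entry of every library, and it was lower in both knockouts. It stood at FPKM 27246 in control 1, 28397 in control 2, 19393 in knockout 1 and 20206 in knockout 2, from 17673, 15938, 4723 and 7518 reads. The next most abundant entry by FPKM, MIR3687-1 in control 2 and MIR3648-1 elsewhere, reached 3645 to 7639. By reads, which are not scaled to length, ACTB lay above RN7SL2 in control 1 (19183) and knockout 2 (9668). The 2 groups did not overlap for RN7SL2, and within each its libraries differed by 1.04-fold. The control mean was 27821 ± 814 (SD, n = 2), the knockout mean 19799 ± 575 (SD, n = 2) and their ratio 0.712. Replicates as close as these in both groups were found for 7 of the 11463 genes tested, RN7SL2 included. Of the tested genes, 0 had a mean within 2-fold of that of RN7SL2, so the count sets it against genes of lower level. On the log2(FPKM + 0.5) scale the fitted difference was −0.49 ± 0.13 (SE), and with any 1 library left out it lay between −0.52 and −0.46. The SEs given here are those of limma, which draw on all genes fitted. For the same difference of RN7SL2 the SE was 0.31 with no filter, 1.37 without the trend and 0.038 with a replicate block.

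The knockouts were also the shallower libraries, and the part of depth in the difference of RN7SL2 was not tested. As RN7SL2 ranked first by FPKM in each library, quantile normalization sets its difference to 0 by construction. In bulk RNA, fewer cells with an RNA and less of it per cell cannot be told apart.

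RN7SL4P, by its symbol a pseudogene of 7SL, was the second of the named 7SL genes. Control 1 had FPKM 1173, control 2 872, knockout 1 154 and knockout 2 522, from 748, 481, 37 and 191 reads. Both knockouts were below both controls, and knockout 1 was far below knockout 2: the knockouts differed by 3.38-fold and the controls by 1.35-fold. The fitted log2 difference was −1.83 ± 0.42 (SE), which became −0.95 without knockout 1 and −2.71 without knockout 2. A gap as wide as that between its knockouts was found in 8.70% of 92 tested genes with a mean level within 2-fold of its own.

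RN7SL3 had FPKM 159 and 154 in controls 1 and 2, and 45.3 and 108 in knockouts 1 and 2. Its knockout values rest on 11 and 40 reads, with exact 95% Poisson intervals of 22.6 to 81.1 and 77.1 to 147 FPKM. Those of the controls, 130 to 193 and 123 to 190, overlap that of knockout 2 but not that of knockout 1. The intervals cover counting error only, since copies made in amplification are not independent molecules. The fitted log2 difference of RN7SL3 was −1.16 ± 0.73 (SE), and −0.53 without knockout 1.

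RN7SL1 was listed at 0 in all 4 libraries, although its sequence is nearly that of RN7SL2. In GENCODE 29 its only exon is covered for 100% of its length by an exon of AL139099.4, a gene annotated on the same strand and itself listed at 0. Across the annotation, 8 of 1069 genes that exons of other genes cover wholly on the same strand were above 0 in any library (0.748%). Of 708 genes covered on the opposite strand only, 103 were above 0 (14.5%), and of 41396 genes free of such overlap 7456 were (18.0%). Among genes as short as RN7SL1, with transcripts of up to 400 nt, the shares were 0.450%, 7.58% and 3.68% in the same order. Whether the 0 of RN7SL1 comes from this overlap was not tested. RN7SK and RPPH1, RNA polymerase III transcripts whose exons are likewise covered for 100%, and both RMRP entries (98.5 and 100%) were also at 0 throughout. Named after their values were seen, RNU12 (covered for 100%) was at 0 throughout, and RNU5E-1 (100%) was above 0 in every library. RNU5E-1 had FPKM 11.6 and 129 in controls 1 and 2, and 61.6 and 195 in knockouts 1 and 2. Named likewise, RNU6-1, RNU6-2 and VTRNA1-3 (covered for 0% on the same strand) were at 0 throughout.

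**Figure D2:**
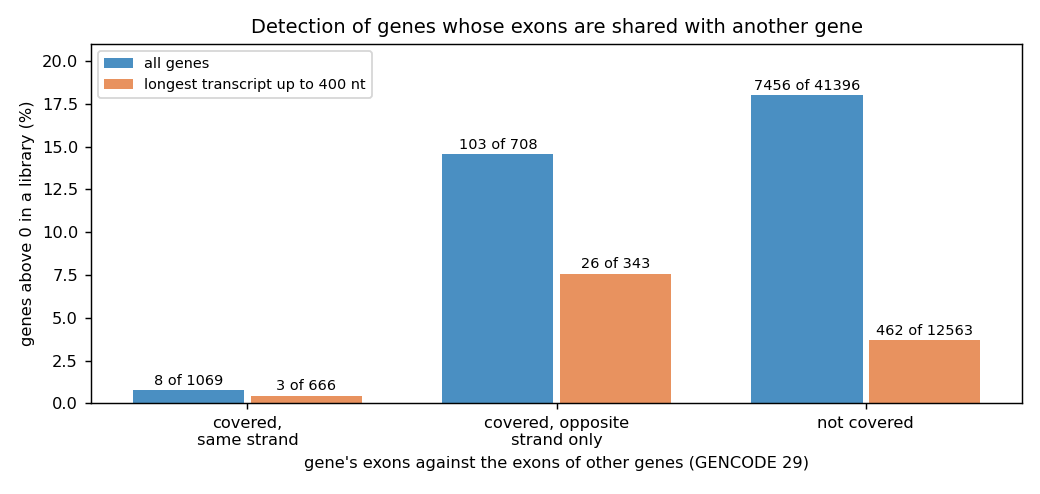
Percent of genes above 0 in at least 1 library, by whether the exons of other genes cover all of the gene's exons on the same strand, on the opposite strand only, or none of them; blue bars are all genes, orange bars genes with a longest transcript of up to 400 nt. Counts stand above the bars; 8 of 1069 genes covered on the same strand, the class of RN7SL1, were above 0.

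The named 7SL genes together took 0.857% of the reads of control 1, 0.882% of control 2, 0.588% of knockout 1 and 0.625% of knockout 2. Exact 95% binomial intervals were 0.844 to 0.869%, 0.869 to 0.896%, 0.571 to 0.605% and 0.611 to 0.639%. The intervals cover counting error only. Those of the groups stood apart, those of the controls touched, and those of the knockouts did not. Most of these reads fell on RN7SL2, known beforehand to be lower in the knockouts, so the separation adds no support. Summed FPKM were 28578 and 29422 for the controls, 19592 and 20836 for the knockouts, a ratio of means of 0.697. With every RN7SL entry included, 680 in all, the sums were 29532, 31071, 20544 and 21883 in the same order.

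Within the 7SL reads, knockout 1 stood apart from the other 3 libraries in the shares of RN7SL2 and RN7SL4P. RN7SL2 held 95.4% and 96.6% of them in controls 1 and 2, and 99.0% and 97.0% in knockouts 1 and 2. RN7SL4P held 4.04% (3.76 to 4.33%) and 2.91% (2.66 to 3.18%) in the controls. In knockout 2 its share was 2.46% (2.13 to 2.83%), whose interval overlaps that of control 2, and in knockout 1 it was 0.776% (0.547 to 1.07%). Knockout 1, the lowest, was also the shallowest library. RN7SL3 held 0.556 and 0.521% in controls 1 and 2, and 0.231 and 0.516% in knockouts 1 and 2, with knockout 1 again the lowest. That lowest share rests on 11 reads. Its interval (0.115 to 0.412%) overlaps that of knockout 2 (0.369 to 0.702%), but not those of the controls (0.454 to 0.674% and 0.417 to 0.643%).

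**Figure D3:**
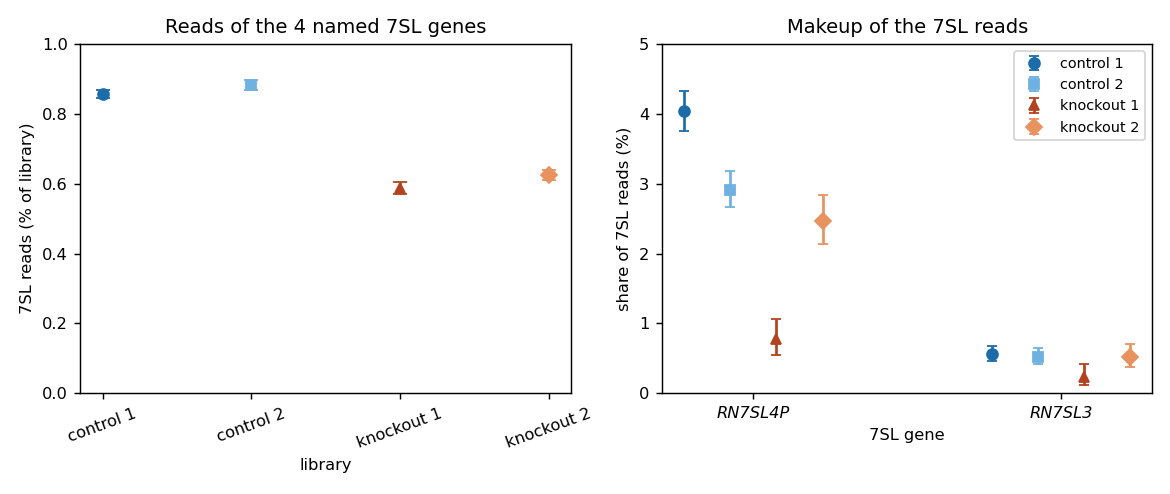
Left: reads of the 4 named 7SL genes as percent of each library. Right: share of those reads that fell on RN7SL4P and on RN7SL3, by library; bars are exact 95% binomial intervals (counting error only). On the left the knockouts lie at 0.588 and 0.625% and the controls at 0.857 and 0.882%, and knockout 1 has the lowest share of RN7SL4P (0.776%).

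RN7SL5P, an entry of chromosome 9 outside the members and chosen after its values were seen, shares 209 nt in 1 stretch with RN7SL1. Its longest stretch in common with RN7SL2 is 166 nt, and 67 of its 222 windows of 100 nt occur there. Reads may thus be split between these entries too. The FPKM of RN7SL5P were 905 and 1224 for the controls, 721 and 899 for the knockouts. The groups did not overlap, by a narrow margin between 905 and 899, and the difference (log2 −0.39 ± 0.35, SE) did not pass (adjusted p = 0.955 in limma). Relative to RN7SL2 it stood at 3.32, 4.31, 3.72 and 4.45 per 100 FPKM in controls 1 and 2 and knockouts 1 and 2. Of the 676 RN7SL entries that are no members 31 were above 0 in some library, 23 of them in a single one and 2 in all 4.

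The protein subunits showed no common direction, with a median log2 difference of 0.31 over the 6. SRP14 (ENSG00000140319, chr15:40035739-40039188, minus strand), which binds the Alu domain, had the highest mean of them. Its FPKM were 112 and 83.4 in controls 1 and 2, and 33.2 and 121 in knockouts 1 and 2, so that its highest and its lowest library were both knockouts. SRP9 (ENSG00000143742, chr1:225777813-225790466, plus strand), which binds 7SL as a heterodimer with SRP14, had 40.6 and 52.9 against 1.54 and 73.8. Its highest and lowest libraries were those of SRP14, but the controls stood in the reverse order. Its value in knockout 1 stands for 2 reads, with an exact 95% Poisson interval of 0.187 to 5.58 FPKM. Per length, SRP9 ran at 0.362, 0.635 and 0.608 of SRP14 in control 1, control 2 and knockout 2, and at 0.0465 in knockout 1.

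Both Alu domain genes were low in knockout 1 alone. The fitted log2 differences were −1.93 ± 1.27 (SE) for SRP9 and −0.60 ± 0.81 (SE) for SRP14. Without knockout 1 their sign turned, to 0.66 and 0.33. A gap between the knockouts as wide as that of SRP9 (47.8-fold) was found in 15.1% of 2676 tested genes with a mean level within 2-fold of its own.

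SRP54 (ENSG00000100883, chr14:34981957-35029567, plus strand), the GTPase that binds signal peptides and the SRP receptor, was higher in the knockouts. It had FPKM 0.795 in control 1, 5.97 in control 2, 173 in knockout 1 and 10.4 in knockout 2. The groups did not overlap, but the height of the knockouts rests on knockout 1, where 327 reads were found against 4, 26 and 30 elsewhere. The log2 difference was 3.91 ± 1.75 (SE), 1.91 without knockout 1 and 2.75 without control 1. The intervals of control 2 (3.90 to 8.75) and knockout 2 (7.01 to 14.8) overlap. Gaps between the knockouts as wide as its 16.7-fold gap were found in 18.1% of 2433 genes of like level.

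SRP68 (ENSG00000167881, chr17:76038775-76072653, minus strand) and SRP72 (ENSG00000174780, chr4:56467336-56503681, plus strand), which bind the S domain together, varied least over the libraries among the protein subunits. SRP68 had FPKM 42.4 and 62.8 in controls 1 and 2 and 80.4 and 55.7 in knockouts 1 and 2 (log2 difference 0.37 ± 0.90, SE). SRP72 had 23.1 and 48.6 against 62.5 and 44.1 (0.64 ± 1.02, SE). For both the groups overlapped, control 1 was lowest and knockout 1 highest, and each difference was smaller than its SE. Without control 1 the differences of SRP68 and SRP72 were 0.093 and 0.11, and without control 2 they were 0.65 and 1.17. Without knockout 1 they were 0.11 and 0.39, and without knockout 2 0.64 and 0.89. SRP68 stood at 1.84 times SRP72 in control 1 and at 1.26 to 1.29 times in the other 3 libraries.

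SRP19 (ENSG00000153037, chr5:112861188-112898371, plus strand), which helps SRP54 onto the RNA, was the lowest protein subunit by mean. It had FPKM 5.05 and 0 in controls 1 and 2, and 7.37 and 0 in knockouts 1 and 2. The listed zeros came in 1 library of each group, beside 77 and 42 reads in the others. Exons of other genes on the same strand cover 18.2% of its exon bases. Its log2 difference of 0.25 ± 2.78 (SE) turned to −1.48 without control 2 and −1.74 without knockout 1.

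**Figure D4:**
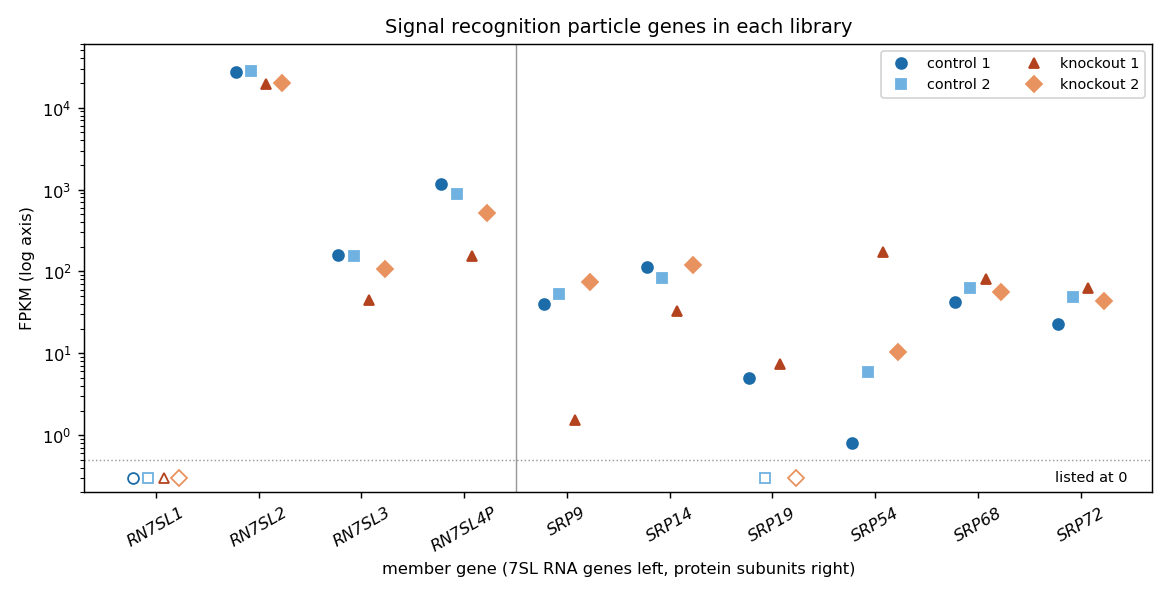
FPKM (log axis) of the 10 SRP genes in each of the 4 libraries, 7SL RNA genes left and protein subunits right; open symbols under the dotted line are values listed at 0. RN7SL2 stands at 19393 to 28397, and the protein subunits at or below 173.

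In order of mean level over the 4 libraries, RN7SL2 (23810) came before RN7SL4P (680), RN7SL3 (117), SRP14 (87.5), SRP68 (60.3), SRP54 (47.6), SRP72 (44.6), SRP9 (42.2), SRP19 (3.10) and RN7SL1 (0). RN7SL2 lay above every other member in each library. RN7SL4P lay above RN7SL3 in each library as well. From RN7SL4P down to SRP19 the ranges over libraries overlapped between neighbours, and the order of the protein subunits changed from library to library. Of the 9 members that passed the filter on low values (a mean FPKM of at least 1), 5 were lower and 4 higher in the knockouts, with a median log2 difference of −0.49 against −0.08 over all genes tested. RN7SL4P alone passed an adjusted p of 0.05 in limma, where 0.0872% of all genes did (0.0262% lower and 0.0611% higher), and with any 1 library left out it no longer did. With all libraries kept, RN7SL4P passed in 6 of 10 alternative settings and RN7SL2 in 4, so which 7SL gene passed depended on the setting. Groups did not overlap for 3 members on the lower side and 1 on the higher, against 14.4% and 12.1% of all genes. As the members were chosen with this contrast known, nothing is read from these counts.

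The SRP receptor and the Sec61 translocon, which take over the ribosome from SRP, did not pass in either direction: 0 of 14 tested genes, 5 higher and 9 lower, with a median log2 difference of −0.34. SRPRA and SRPRB, the receptor subunits, are named outside the rule for named genes, after their values were seen. SRPRA had FPKM 70.7 and 45.5 in controls 1 and 2 and 16.1 and 58.1 in knockouts 1 and 2. SRPRB had 37.3 and 6.24 against 1.74 and 77.9. As for SRP9 and SRP14, both were lowest in knockout 1.

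The translocon genes varied between libraries in no single order. SEC61A1, the pore of the channel, had FPKM 2.04 and 79.6 in controls 1 and 2 and 98.6 and 68.3 in knockouts 1 and 2. SEC61B, a small subunit of it, had 0 and 40.5 against 204 and 35.2, the largest difference of the list (log2 4.24 ± 1.38, SE; adjusted p = 0.517 in limma). For both, control 1 was lowest and knockout 1 highest. SEC61G, the third subunit of the channel, named after its values were seen, was listed at 0 in both of these libraries and had 53.1 in control 2 and 28.3 in knockout 2. TRAM1, which helps chains enter the membrane, likewise named afterwards, was highest in control 1 (88.0) and lowest in knockout 1 (1.09). HSPA5, the chaperone BiP of the lumen, was the most abundant at 107 and 124 against 190 and 119, groups that overlapped.

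Signal peptidase and oligosaccharyltransferase, which cut and glycosylate the entering chain, had 0 of 17 tested genes past the threshold (6 higher, 11 lower, median −0.33). Among the 11 lower is HM13, a signal peptide peptidase, which is part of neither enzyme. RPN2, an oligosaccharyltransferase subunit, had FPKM 54.2 and 131 in controls 1 and 2 and 177 and 153 in knockouts 1 and 2. RPN1 had 58.2 and 107 against 72.4 and 106, and DDOST 112 and 60.8 against 42.9 and 48.5. For RPN2 and DDOST the groups did not overlap, in opposite directions, and neither passed.

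The list for routes into the membrane that bypass SRP had 0 of 15 past the threshold, with 8 higher, 7 lower and a median of 0.00367. SND1, EMC7 and SGTA led this list at mean FPKM of 46.7, 45.4 and 43.7. SND1 entered by its symbol and is counted among the 8 higher, but the human gene encodes a Tudor domain nuclease, not an insertion factor. The nascent chain factors, which meet the chain at the ribosome exit, had 0 of 7 past it (4 higher, 3 lower, median 0.15). BTF3, a subunit of the nascent polypeptide-associated complex, had 197 and 166 against 311 and 270 (log2 0.67 ± 0.55, SE). NACA, its partner, had 38.9 and 75.3 against 113 and 57.3, and METAP2, which removes the first methionine, 62.7 and 77.8 against 71.8 and 83.3.

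The RNA polymerase III machinery, not all of which serves the transcription of 7SL, had 0 of 28 tested genes past the threshold. Of these, 20 were lower and 8 higher, with a median log2 difference of −0.79 against −0.08 over all genes. At 0 were 7 of the 28 in knockout 1, 4 in knockout 2, 3 in control 1 and 0 in control 2. GTF3C6, a subunit of the factor TFIIIC, had FPKM 1.46 and 49.4 in controls 1 and 2 and 155 and 131 in knockouts 1 and 2 (log2 3.86 ± 1.07, SE; adjusted p = 0.162 in limma). BDP1, a subunit of TFIIIB, had 56.3 and 52.4 against 25.4 and 43.4. SSB, the La protein that holds the 3′ ends of new transcripts of this polymerase, had 85.1 and 25.0 against 63.5 and 35.7.

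Other RNAs of RNA polymerase III were mostly not seen. Of 18 entries 11 were at 0 in every library, and 0 of the 7 tested passed (4 higher, 3 lower, median 0.54). RNY1, a Y RNA, had FPKM 94.1 and 454 in controls 1 and 2 and 512 and 485 in knockouts 1 and 2, from 23, 96, 47 and 68 reads. RNY3 had 18.1 and 210 against 229 and 206, and RNY4 28.9 and 94.7 against 231 and 25.2. The list summed to 170, 784, 1055 and 732 in controls 1 and 2 and knockouts 1 and 2, with control 1 lowest and control 2 between the knockouts.

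Small nuclear RNAs of RNA polymerase II, which also lack a polyA tail, summed to 386, 1293, 837 and 1457 in controls 1 and 2 and knockouts 1 and 2. Of 10 tested, 1 passed, RNU5A-1, a U5 RNA of the spliceosome, higher in the knockouts (log2 5.71 ± 1.26, SE; adjusted p = 0.00896 in limma) at 0 and 23.0 against 244 and 132. These rest on 0, 5, 23 and 19 reads, and the call ended with any 1 of the 4 libraries left out. RNU4-2 (85.3 and 311 against 218 and 457), RNU4-1 (26.2 and 375 against 122 and 126) and RNU5B-1 (83.7 and 166 against 53.1 and 271) overlapped between groups. How much RNA without a polyA tail each library carried was not measured apart from such sums, and its part in the values of 7SL was not tested.

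Of 10 housekeeping genes 0 passed the threshold, with a median of 0.0027. ACTB had FPKM 3952 and 3389 in controls 1 and 2 and 2036 and 3472 in knockouts 1 and 2. GAPDH had 646 and 838 against 1054 and 1054, and EEF1A1 829 and 543 against 630 and 506. Lower in level, and named after their values were seen, HPRT1 (0.329, 20.1, 0 and 56.7 in controls 1 and 2 and knockouts 1 and 2) and B2M (3.08, 54.1, 54.3 and 49.0) spread far more widely.

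**Figure D5:**
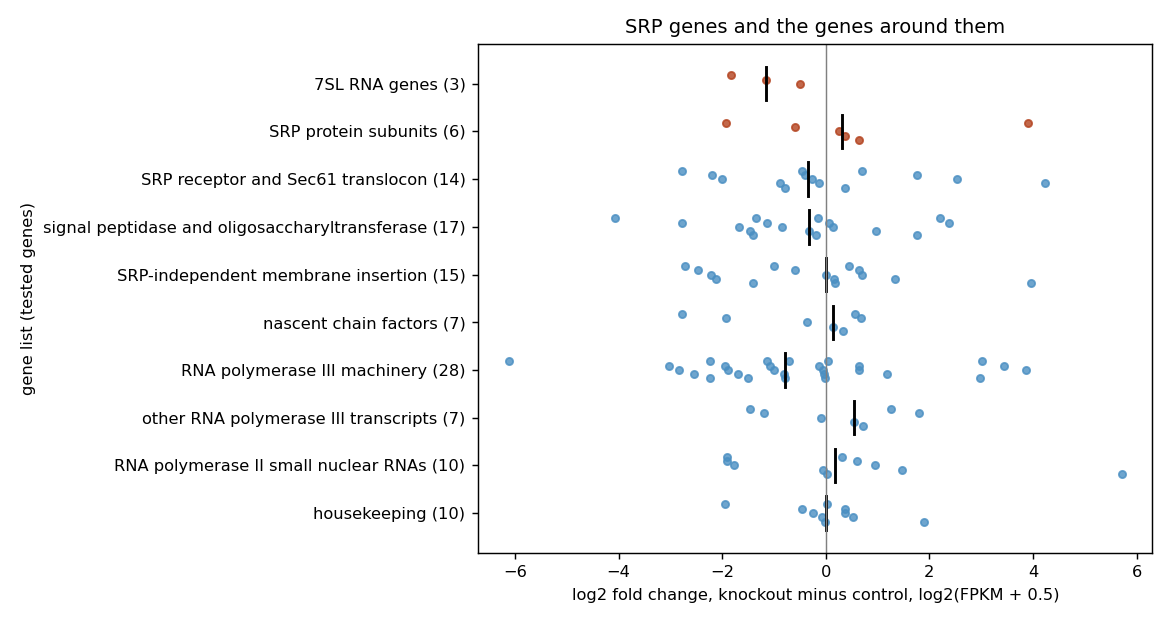
Fitted log2 difference (knockout minus control, log2(FPKM + 0.5)) of each tested gene, by list, with the number of tested genes in brackets; points are genes and black lines medians. The medians are −1.16 for the 7SL RNA genes and 0.31 for the protein subunits, and the single genes of most lists spread to both sides of 0.

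The genes whose pattern over the 4 libraries was most like that of the summed 7SL level were ranked among 1315 genes at or above a mean FPKM of 50, by the root mean square difference of centred log2 values. ANKRD11 (0.0924), TMSB10 (0.0947), GCN1 (0.113), ACLY (0.117) and ATF4 (0.117) came first. TMSB10, which encodes a small actin-binding protein, had FPKM 2059 and 2442 in controls 1 and 2 and 1381 and 1494 in knockouts 1 and 2. For SRP14, DHX16 (0.0995), HUWE1 (0.117), CHD4 (0.130), BCAR1 (0.133) and DLG5 (0.139) came first among 1318. HUWE1, a ubiquitin ligase, had 80.4 and 61.8 against 27.2 and 79.5, again low in knockout 1. With 4 libraries such a likeness is a description only.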

How the data were processed

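Per the labels' protocols, total RNA was extracted with Trizol and libraries followed the Illumina TruSeq RNA kit. The authors deposited FPKM values per Ensembl gene, 1 table per library, with HTSeq named in the file names and build hg38 in the submitters' processing notes. Not given in the sources used here are the aligner, annotation, strand setting, read length and duplicate removal.

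Names, longest transcripts, exon overlap and 7SL sequences came from GENCODE 29, which named 58039 of 58302 genes. FPKM times transcript length was a whole multiple of 1 step for 96.4 to 96.5% of genes above 0 (tolerance 0.0001), which gave the reads. A read of a 300 nt RNA was worth 1.54 to 4.11 FPKM.

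All genes whose mean FPKM reached 1 were fitted with limma 3.58.1 (R 4.3.3; lmFit, eBayes with trend, two-sided, Benjamini-Hochberg over all 11463) on log2(FPKM + 0.5), a scale that understates changes of low genes. Members and lists were chosen with earlier results of these data known. Named genes are the members, the 3 most abundant tested genes of each list, any past the threshold, and 5 most alike in pattern. Alternatives covered pseudocount, filter, scaling, moderation, a replicate block and left-out libraries. One listed gene, RNY5, was not matched. 7SL transcripts were aligned with Biopython 1.88, and their sequences are not reported here. Tables and figures were made with Python 3.11.15, pandas 2.3.3, numpy 2.4.6, scipy 1.17.1 and matplotlib 3.10.9.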

Additional observations from a re-analysis of the deposited data

How the results depend on the processing

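The count of 10 genes past the threshold (7 higher, 3 lower) was 7 to 14 in 9 of 10 alternatives that kept all libraries. The split was 7 to 6 on the TPM scale, 6 to 5 with a pseudocount of 0.1 and 6 to 1 with no filter. With eBayes run without trend it was 0 (415 genes had an unadjusted p under 0.05, 448 with trend), and limma-voom on recovered reads, chosen after the data were seen, called 11. With any 1 library left out the count was 0 (0 to 0; 578 to 1017 at an unadjusted p under 0.05), and the group then of 1 library is taken to spread as the other does. Among the listed genes around SRP, the 1 call was likewise lost: limma without trend called 0, with 3 of 107 genes below 0.05 before adjustment against 8 with trend, and limma called 0 with any library left out (2 to 11 before adjustment). The replicate block gave 14 genes and left each member's difference as it was. Same-numbered libraries did not deviate together (r = −0.0040 across 11463 genes, which are not independent replicates), so the numbers were not taken as pairs.

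The ratio of summed 7SL levels, knockout over control, was 0.697 and lay between 0.676 and 0.718 with a library left out. Without RN7SL2, a choice made after the data were seen, it was 0.352. With all libraries kept, RN7SL3, RN7SL4P and the protein subunits kept their sign in every alternative run. With 1 library left out the log2 differences ranged from −4.52 to 0.66 for SRP9, −1.53 to 0.33 for SRP14 and −1.74 to 2.24 for SRP19, and the signs of RN7SL2, RN7SL3, RN7SL4P, SRP54, SRP68 and SRP72 did not turn. The median over all genes was −0.08. Limma-voom put it at 0.041, leaving out control 1 or control 2 moved it to −0.38 or 0.48, and leaving out knockout 1 or knockout 2 to 0.20 or −0.75. Medians of the lists are set against −0.08 only. SRP19 was below the filter at a mean FPKM of 5. SRP9, SRP19 and SRP54 had 0 to 4 reads in some libraries, which for SRP54 was control 1, the deepest.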
